A study of Mus musculus with 42 samples.

Results

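The choroid plexus genes described here were Ttr, Kl, Folr1, Kcnj13, Clic6, Aqp1, Slc4a5, Enpp2, Otx2 and Sostdc1. They were matched by gene symbol in both deposited count tables of mouse cerebellum, 10 of the 35275 genes listed. All 10 passed the filter on low counts, and they were followed as a measure of how much choroid plexus each dissection held. The choroid plexus is a folded sheet of secretory epithelium around leaky capillaries that hangs in the brain ventricles, where it makes cerebrospinal fluid and forms a barrier between blood and that fluid. One of its fronds lies in the ventricle beneath the cerebellum, so it can be taken along or left behind when the cerebellum is lifted out. Its epithelium makes some transcripts, transthyretin above all, at levels that other brain cells hardly reach.

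The tissue came from male C57BL/6 mice, named C57/BL6NTac in the design text, with no engineered allele given. All mice fed freely until 3 months of age. For the next 3 months the AL mice went on feeding ad libitum, the IF16 mice went without food for 16 h of each day, and the EOD mice went without food for 24 h every other day. These groups were collected at 6 months of age. In the matching groups AL-R, IF16-R and EOD-R, the same regimens were followed by 2 months of free feeding and collection at 8 months. Each of the 6 groups had 5 RNA-seq libraries, 30 in all. The 15 libraries of each age form a deposited table of their own, so age, refeeding, collection and table cannot be told apart.

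Total counts per library ran from 26799825 to 36167435. Levels are given as CPM, read counts scaled to library size with TMM factors over all 30 libraries. Levels of different genes are compared as FPKM, which also divides by gene length. Cerebellar markers were high in every library: Gabra6, of granule cells, lay between 157 and 283 FPKM and Pcp2, of Purkinje cells, between 62.7 and 154 FPKM. Genes of the adjoining brainstem were also detected: Slc6a5, the glycine transporter of inhibitory neurons in brainstem and cerebellum, at 2.87 to 5.72 FPKM, Dbh at 0.0833 to 5.69 FPKM and Tph2, of serotonin neurons, at 0.125 to 3.65 FPKM. Counting at this depth was precise for the abundant genes but not for the rarest values, since Aqp1, Folr1, Kcnj13 and Sostdc1 fell to 3 or 4 counts in single libraries. Fewer plexus cells in a dissection and less RNA per plexus cell cannot be told apart in such bulk samples.

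Otx2 encodes a homeodomain factor that choroid plexus epithelium needs, and its known core motif TAATCC was looked for in the 250 bases before the RefSeq start of each gene (GRCm38.p6). RefSeq windows were matched for 5 of the 10 genes, Kl, Kcnj13, Aqp1, Slc4a5 and Otx2, with 8 windows because Otx2 has several starts. Of these, 1 window held the motif on either strand (as TAATCC or GGATTA), at an Otx2 start inside the deposited gene body. Of 32851 windows of the same length over all genes, 6.25% held it. The windows before Kl, Kcnj13 and Aqp1, genes of 3 different roles that moved together below, are shown 5′ to 3′ on the strand of the gene. None holds these letters, which says only that they are not in these bases. No capitals appear because nothing was matched. They lie at chr5:150952357-150952606 on the plus strand for Kl, at chr1:87394730-87394979 on the minus strand for Kcnj13, and at chr6:55336049-55336298 on the plus strand for Aqp1.
Kl: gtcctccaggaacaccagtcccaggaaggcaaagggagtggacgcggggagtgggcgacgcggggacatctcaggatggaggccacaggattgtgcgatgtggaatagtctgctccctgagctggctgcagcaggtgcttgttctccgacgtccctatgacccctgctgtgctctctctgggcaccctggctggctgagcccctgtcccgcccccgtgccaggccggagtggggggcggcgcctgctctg
Kcnj13: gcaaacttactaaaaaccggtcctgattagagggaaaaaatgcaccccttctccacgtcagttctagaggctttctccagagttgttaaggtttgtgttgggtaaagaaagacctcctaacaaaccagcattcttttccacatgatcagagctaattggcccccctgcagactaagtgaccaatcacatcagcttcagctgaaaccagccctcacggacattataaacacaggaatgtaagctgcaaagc
Aqp1: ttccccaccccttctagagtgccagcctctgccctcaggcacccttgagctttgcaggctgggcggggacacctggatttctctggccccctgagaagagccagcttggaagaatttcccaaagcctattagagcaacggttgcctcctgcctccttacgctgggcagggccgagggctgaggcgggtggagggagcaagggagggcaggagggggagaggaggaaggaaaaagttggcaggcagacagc

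Ttr (ENSMUSG00000061808, chromosome 18, 20665250-20674324) encodes transthyretin, the carrier of thyroxine and of retinol-binding protein in blood and cerebrospinal fluid. In replicates 1 to 5, Ttr stood at 17.6, 1930, 2750, 4090 and 1160 CPM in AL, at 1270, 575, 303, 2920 and 13.8 CPM in IF16, and at 2570, 1680, 1830, 668 and 2700 CPM in EOD. After refeeding it stood at 1830, 15.9, 199, 15.6 and 15 CPM in AL-R, at 604, 8.49, 7.83, 7.82 and 157 CPM in IF16-R, and at 12.7, 861, 2140, 10.7 and 13.8 CPM in EOD-R. Libraries of the same group thus differed by orders of magnitude, and only EOD and IF16-R, of all pairs of groups, did not overlap. The highest library, AL replicate 4, was 522-fold above the lowest, IF16-R replicate 4, with a 95% interval of 459 to 597 that covers counting error only.

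Ttr had no library between 17.6 and 157 CPM, an 8.92-fold gap. Under it lay 11 libraries, 2 of the 15 collected at 6 months (AL replicate 1 and IF16 replicate 5) and 9 of the 15 collected at 8 months, 3 in each group. EOD had none. Even these 11 libraries held 232 to 606 counts of Ttr, so the transcript was never missing.

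**Figure D1:**
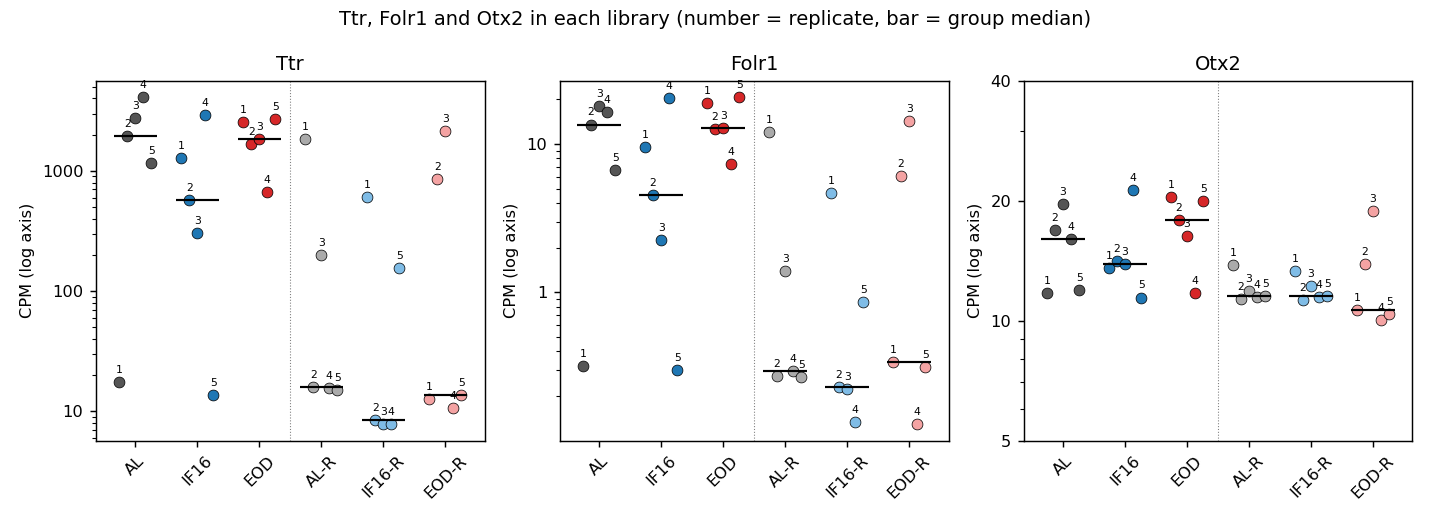
Level of Ttr, Folr1 and Otx2 in each of the 30 libraries (CPM, log axis), by group; the small number is the replicate, the bar the group median, and the dotted line parts the collections at 6 and 8 months. Ttr leaves a gap between 17.6 and 157 CPM, Folr1 separates the same libraries, and Otx2 stays between 10.1 and 21.3 CPM.

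Enpp2 (ENSMUSG00000022425, chromosome 15, 54838898-54920146) encodes autotaxin, a secreted enzyme that makes lysophosphatidic acid and that oligodendrocytes also express. Its values were 137, 789, 1020, 851 and 413 CPM in AL, 439, 306, 228, 1060 and 132 CPM in IF16, and 974, 729, 708, 426 and 987 CPM in EOD. At 8 months they were 769, 122, 176, 130 and 122 CPM in AL-R, 357, 126, 135, 121 and 183 CPM in IF16-R, and 133, 413, 739, 129 and 131 CPM in EOD-R. The 11 libraries lowest in Ttr were also the 11 lowest in Enpp2, but there Enpp2 levelled out between 121 and 137 CPM, so its whole range was 8.75-fold.

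Per length, Ttr was the most abundant of the 10 genes in 19 libraries and Enpp2 in the other 11, which were those below the gap in Ttr. The median FPKM over 30 libraries was 487 for Ttr and 98.2 for Enpp2, followed by 5.6 for Otx2, 4.76 for Clic6, 3.35 for Folr1, 2.88 for Kl, 2.76 for Sostdc1, 1.49 for Slc4a5, 1.3 for Aqp1 and 0.661 for Kcnj13. Neighbours from Otx2 downwards overlapped widely in their ranges. Together the 10 genes took from 0.0152% of a library's counts in IF16-R replicate 4 to 0.497% in AL replicate 4. Ttr alone supplied from 4.65% of those counts, in IF16-R replicate 3, to 80.1%, in AL replicate 4.

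Kl (ENSMUSG00000058488, chromosome 5, 150952607-150993809) encodes klotho, a membrane co-receptor for FGF23 whose outer part is shed into cerebrospinal fluid. It stood at 3.22, 45.6, 60.7, 41.3 and 17.9 CPM in AL, at 17.7, 11.7, 8.99, 58.1 and 1.75 CPM in IF16, and at 53.6, 41.6, 38.3, 19.9 and 51.7 CPM in EOD. In the refed groups it stood at 52.8, 2.64, 5.9, 2.07 and 1.94 CPM in AL-R, at 18.9, 2.4, 2.1, 1.55 and 4.11 CPM in IF16-R, and at 2.35, 22.5, 40.9, 1.65 and 1.13 CPM in EOD-R. The order of libraries was close to that of Ttr, and Kl was no higher than 3.22 CPM in the 11 libraries below the gap and no lower than 4.11 CPM in the others.

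Folr1 (ENSMUSG00000001827, chromosome 7, 101858331-101870788) encodes folate receptor alpha, through which the plexus moves folate into cerebrospinal fluid. It stood at 0.32, 13.5, 18, 16.3 and 6.62 CPM in AL, at 9.5, 4.51, 2.25, 20.5 and 0.302 CPM in IF16, and at 18.9, 12.6, 12.8, 7.26 and 20.6 CPM in EOD. In AL-R it stood at 12, 0.273, 1.4, 0.296 and 0.269 CPM, in IF16-R at 4.7, 0.229, 0.223, 0.135 and 0.861 CPM, and in EOD-R at 0.34, 6.07, 14.3, 0.129 and 0.314 CPM. The 11 libraries below the gap in Ttr held 4 to 11 counts of Folr1, and the other 19 reached at least 0.861 CPM. Its highest library was 159-fold above its lowest, with a counting interval of 62.1 to 583.

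The genes for ion and water transport separated the libraries in nearly the same way. Aqp1 (ENSMUSG00000004655, chromosome 6, 55336432-55348555), a water channel of the apical membrane, ran from 0.0954 CPM or 3 counts in IF16-R replicate 3 to 15.2 CPM in IF16 replicate 4, a ratio of 160 with a counting interval of 54.6 to 774. Slc4a5 (ENSMUSG00000068323, chromosome 6, 83219828-83304945), a sodium bicarbonate cotransporter, ran from 1.88 to 22.7 CPM, 12.1-fold. The 11 libraries lowest in Slc4a5 were those lowest in Ttr, and 10 of the 11 lowest in Aqp1 were.

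Kcnj13 (ENSMUSG00000079436, chromosome 1, 87386363-87394729) encodes the inward rectifier potassium channel Kir7.1. It was the least abundant, at 0.127 to 2.99 CPM or 4 to 99 counts, and 9 of its 11 lowest libraries were those lowest in Ttr. Clic6 (ENSMUSG00000022949, chromosome 16, 92485736-92541243), a chloride intracellular channel family protein, ran from 8.49 to 49.9 CPM, only 5.87-fold, and shared 10 of 11. Clic6 did not fall below 264 counts in any library, whereas Kcnj13 near its minimum rested on few counts.

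Sostdc1 (ENSMUSG00000036169, chromosome 12, 36314169-36318452) encodes a secreted antagonist of BMP and Wnt signals. It ran from 0.0971 CPM or 3 counts in EOD-R replicate 4 to 18.2 CPM in IF16 replicate 4, a ratio of 187 with a counting interval of 64.1 to 908, and its 11 lowest libraries were those lowest in Ttr. Otx2 (ENSMUSG00000021848, chromosome 14, 48657679-48667644) differed from the rest in its small range. It stood at 11.7, 16.9, 19.6, 16 and 12 CPM in AL, at 13.6, 14.1, 13.9, 21.3 and 11.4 CPM in IF16, and at 20.5, 17.9, 16.3, 11.8 and 20 CPM in EOD. In AL-R it stood at 13.8, 11.3, 11.9, 11.5 and 11.5 CPM, in IF16-R at 13.3, 11.3, 12.2, 11.5 and 11.6 CPM, and in EOD-R at 10.6, 13.9, 18.9, 10.1 and 10.4 CPM. The whole range of Otx2 was 2.12-fold, and its level below the gap in Ttr, 10.1 to 12.2 CPM, overlapped that of 4 libraries above it.

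**Figure D2:**
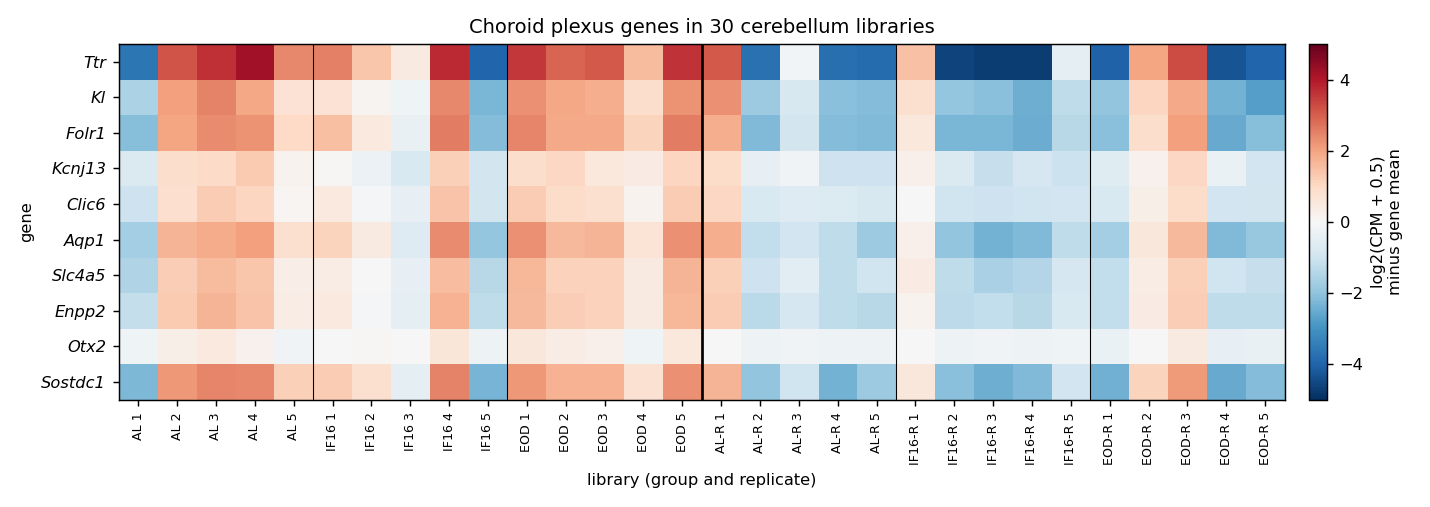
log2(CPM + 0.5) of the 10 genes minus each gene's mean over 30 libraries (colour, limited to 5 in either direction), with genes as rows and libraries as columns; the thick line parts the collections at 6 and 8 months. The 11 libraries below the gap in Ttr are below the mean (blue) in every row, deepest in Ttr and faintest in Otx2; of the other 19 libraries, 2 are below the mean in Ttr and 6 in Otx2.

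Among all genes tested, the plexus genes ranked near the top in spread between libraries of the same group, measured as the within-group SD of log2(CPM + 0.5). At 6 months Ttr ranked 1st of 16577 genes with an SD of 2.54, Sostdc1 3rd with 1.6, Folr1 4th with 1.53, Kl 5th with 1.4 and Aqp1 7th with 1.36. The SD was 0.999 for Slc4a5, 0.981 for Enpp2, 0.797 for Clic6, 0.691 for Kcnj13 and 0.311 for Otx2, against a median of 0.181 over all genes. At 8 months Ttr again ranked 1st, of 16444 genes, with 3.25, Kl 2nd with 1.8, Sostdc1 4th with 1.75, Folr1 5th with 1.73 and Aqp1 9th with 1.43. Otx2 ranked 1881st at 8 months with 0.232, and the median over all genes was 0.11.

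Whether the other plexus genes went with Ttr between libraries was tested across all genes with edgeR's quasi-likelihood test, in a model of group plus log2 CPM of Ttr fitted to each table. The slope is the log2 change of a gene per doubling of Ttr within groups. At 6 months 8 of the 9 other plexus genes rose with Ttr, and at 8 months 9 of 9 did. Over all genes, 104 of 16576 rose with Ttr at 6 months (0.627%; 0.639% changed either way) and 88 of 16443 at 8 months (0.535%). Ndst4 and Kcnh5, called lower at 6 months, were the only genes to fall in either fit.

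Among these 9 genes Sostdc1 and Folr1 had the steepest slopes. Per doubling of Ttr, Sostdc1 rose by 0.85 (SE 0.0363, edgeR adjusted p = 5.22e-10) at 6 months and by 0.78 (SE 0.0301, adjusted p = 1.84e-12) at 8 months. Folr1 rose by 0.80 (SE 0.0353, edgeR adjusted p = 6.02e-10) and by 0.78 (SE 0.0262, adjusted p = 2.37e-13), which is 1.74-fold and 1.72-fold per doubling. A gene that kept a constant ratio to Ttr would have a slope of 1, and both stayed under it. These slopes span libraries on both sides of the gap in Ttr and were not fitted above it alone. The 11 libraries below the gap held 4 to 11 counts of Folr1 and 3 to 15 counts of Sostdc1. With Folr1 in place of Ttr as the predictor the slopes of Sostdc1 were 1.24 and 1.35, so the size of a slope depends on the predictor.

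The slopes of the other genes formed a descending order that was alike at the 2 ages. Aqp1 rose by 0.73 and 0.62 at 6 and 8 months, Kl by 0.59 and 0.60, Kcnj13 by 0.44 and 0.35, Slc4a5 by 0.42 and 0.33, Enpp2 by 0.37 and 0.30, and Clic6 by 0.30 and 0.22. Their edgeR adjusted p-values were at most 0.000265. Otx2 had a slope of 0.09 at 6 months (SE 0.024, edgeR adjusted p = 0.127) and rose by 0.06 at 8 months (SE 0.0122, adjusted p = 0.0189). The call of Otx2 at 8 months was lost without AL-R replicate 1 (adjusted p = 0.0536), EOD-R replicate 3 (0.11) or EOD-R replicate 4 (0.0507).

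**Figure D3:**
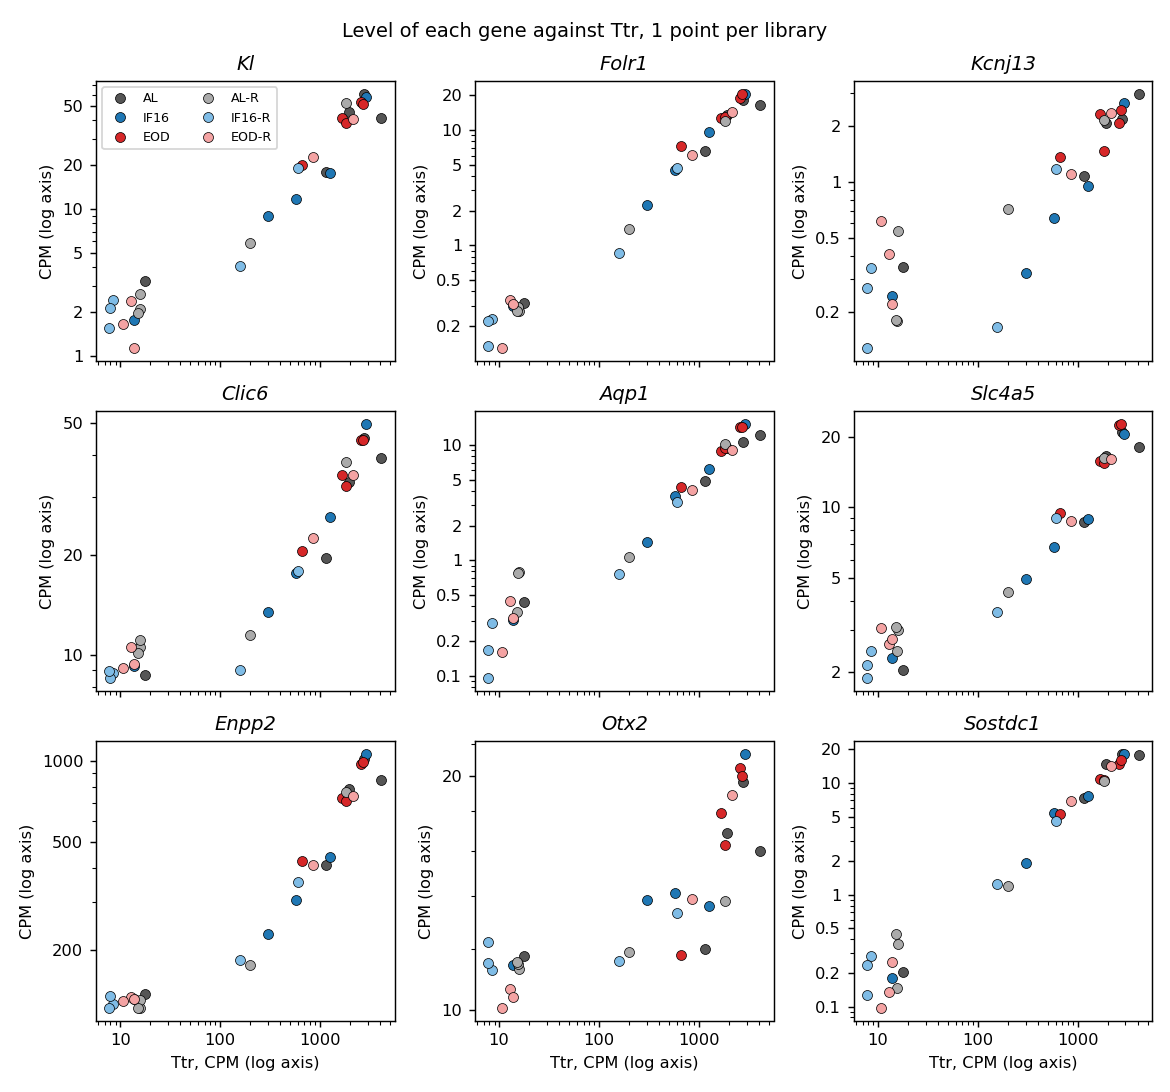
CPM of 9 plexus genes (vertical, log axis) against CPM of Ttr (horizontal, log axis), 1 point per library, coloured by group. Folr1 and Sostdc1 rise with Ttr, but mostly stand higher relative to Ttr at the left, where Ttr is at most 17.6 CPM. Enpp2 and Clic6 flatten there, and Otx2 moves little.

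The ratio of Ttr to Folr1, both per length, was not constant. The gap is one in Ttr, the numerator, so a lower ratio below it is partly built in. It lay between 39.9 and 93.9 in the 11 libraries below the gap and between 104, in EOD replicate 4, and 284, in AL replicate 4, in the other 19. These 2 libraries also stood at the ends of the length gradient, the slope of log2(CPM + 0.5) on log2 gene length in a library. It was taken over the genes that passed the filter on low counts at each age. RNA quality and library preparation are known to affect it. The gradient was 0.968 in EOD replicate 4, the highest of 30 libraries, and 0.692 in AL replicate 4, the lowest. The 2 genes of the ratio are of similar length, 1219 bases for Ttr and 1383 bases for Folr1. The part of the gradient in the ratio was not tested.

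The wider lists of plexus genes were, like the 10 genes, chosen with earlier results of these data known. Slopes in them ran from steep to flat. Of 22 genes of transport and barrier, 10 of 22 tested rose with Ttr at 6 months and 11 of 21 at 8 months. Their median slopes were 0.09 and 0.04, against 0.44 and 0.35 for the 9 plexus genes above. Kcne2, a potassium channel subunit, rose by 0.85 and 0.79 per doubling of Ttr, and Tmem72 by 0.83 and 0.69. Their lowest values, 0.0674 and 0.0324 CPM, rested on very few counts. Slc12a2, a sodium, potassium and chloride cotransporter that many brain cells express, had slopes of -0.02 and 0.01 (edgeR adjusted p = 0.513 and 0.721).

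Of 26 plexus genes for secreted proteins, receptors and regulators, 18 rose with Ttr at 6 months and 17 at 8 months, with median slopes of 0.17 and 0.14. Wfdc2, a secreted protease inhibitor family protein, rose by 0.76 and 0.59, and Prlr, the prolactin receptor, by 0.58 at each age. Wfdc2 was at 0 CPM in some library of IF16-R and of EOD-R. Htr2c, a serotonin receptor, had a slope of 0.14 at 6 months (edgeR adjusted p = 0.318) and rose by 0.31 at 8 months (adjusted p = 1.28e-08). The dorsal midline factor Lmx1a had a slope of 0.13 (adjusted p = 0.0694) and rose by 0.14 (adjusted p = 0.00125). For comparison, the median slope of all genes was 0.00163 at 6 months and -0.000817 at 8 months.

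Few markers of neighbouring tissues passed the test. Of 15 tested genes of ependyma, the ciliated lining of the ventricles, 2 rose at 6 months, Pifo by 0.28 and Rsph1 by 0.17 (edgeR adjusted p = 0.0387 for each), and 0 rose at 8 months. At an unadjusted p under 0.05 there were 8 of the 15 at 6 months, where 15.6% of all genes had one, and 7 of the 15 at 8 months, where 7.17% did, and 14 and 11 of the 15 slopes were above 0. With each of the 15 libraries left out in turn, Pifo was no longer called in 9 fits and Rsph1 in 11. No gene of the lists for meninges, fenestrated or brain endothelium, blood, oligodendrocytes, astrocytes, microglia, granule cells, Purkinje cells, brainstem or forebrain was called by edgeR in either slope fit. Of the 65 such genes tested at 6 months 5 had an unadjusted p under 0.05, and of the 61 tested at 8 months 6 did, against the shares of all genes given above. The 7 tested brainstem genes had a median slope of 0.22 at 6 months, above the medians of both wider plexus lists, with 6 slopes above 0 and 1 unadjusted p under 0.05. Their median at 8 months was 0.03, over 3 genes. The brainstem slopes at 6 months leaned on single libraries. Without AL replicate 4 the slope of Slc6a4 went from 0.34 to -0.01 and that of Tph2 from 0.28 to 0.08. Without AL replicate 1 that of Dbh went from 0.22 to 0.03, whereas Slc6a5 stayed between -0.058 and -0.0354 with any library left out. The part of brainstem or ependyma content in the slopes of the plexus genes was not tested. Of the 12 genes of meninges and stroma, 0 had an unadjusted p under 0.05 at 6 months and 1 at 8 months. Over 15 libraries a table, the median slope of the 5 blood genes was 0.14 at 6 months and -0.11 at 8 months.

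**Figure D4:**
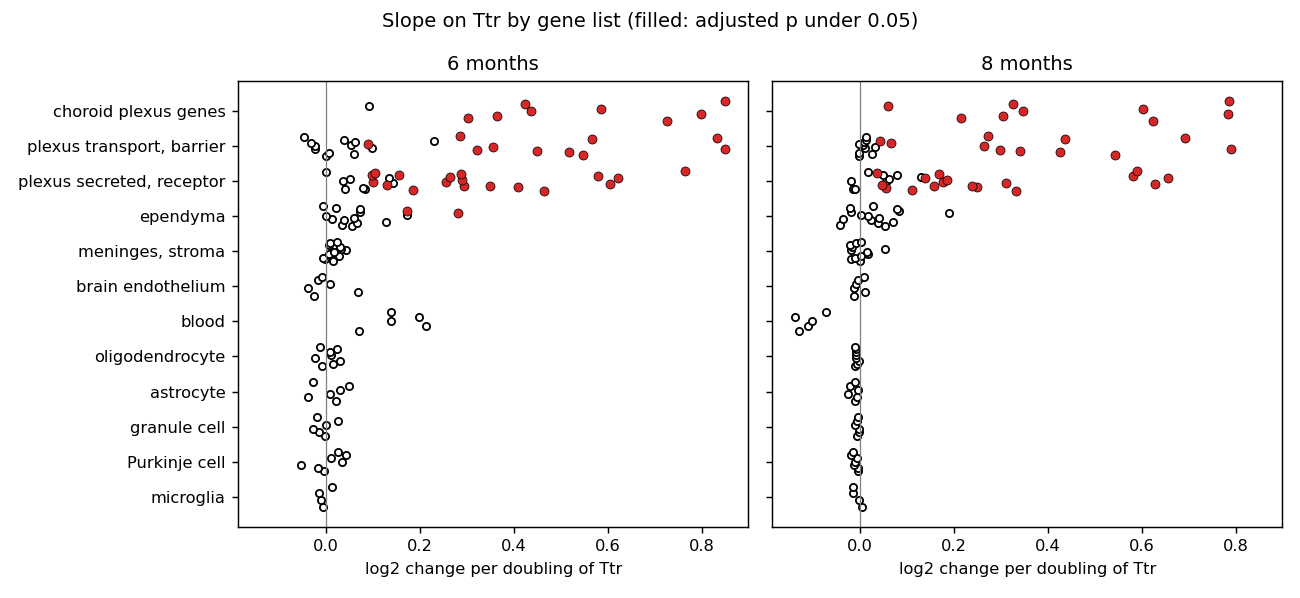
Slope of each gene on Ttr (log2 change per doubling of Ttr, within groups) at 6 and 8 months, by gene list, 1 point per gene; filled points have an edgeR adjusted p under 0.05. Among the lists drawn, the filled points lie in the 3 plexus lists, apart from 2 ependyma genes at 6 months. Brainstem, forebrain and fenestrated endothelium are not drawn, and none of their genes was called in either slope fit.

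Genes whose pattern was most like that of the plexus genes were ranked by the smaller of the 2 tables' Pearson correlations, over 15 libraries each, with the mean of the 10 genes, among 14074 genes with a mean of at least 1 CPM at both ages. The 10 closest were Tmem72 and Kcne2 (r of 0.991 each), Car12 (0.987), F5 (0.987), Mfrp (0.981), Prlr (0.973), Ccdc135 (0.962), Abca4 (0.959), 1500015O10Rik (0.949) and Cldn2 (0.948). These describe shared libraries and carry no test. Of the 10, 8 were on the plexus lists, and Ccdc135 and Abca4 were not. Of the plexus genes themselves Folr1 had 0.996 and Otx2 0.827, and Kcnj13 was not ranked because its mean was under 1 CPM at 8 months. Each plexus gene is part of the mean it was compared with, so its r cannot be set beside those of the other genes.

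The comparisons of feeding regimens asked whether fasting altered these genes, and none of the 10 passed the test in any. Against AL, the 10 genes had a median log2 difference of -0.59 in IF16, from -0.98 for Ttr to -0.04 for Otx2, with edgeR adjusted p-values of 0.586 to 0.949. Ttr averaged 1990 ± 1550 CPM in AL and 1020 ± 1160 CPM in IF16 (SD, n = 5 each; log2 difference -0.98, SE 0.986), so its difference was no larger than its error. Over all genes, 0.0483% were called by the same test and 9.92% had an unadjusted p under 0.05, and the median difference of all genes was -0.00616.

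In EOD the median difference from AL was 0.27, from -0.08 for Ttr to 0.44 for Aqp1, with edgeR adjusted p-values of 0.579 to 0.994 and 0.0664% of all genes called (14.4% at an unadjusted p under 0.05). Ttr averaged 1890 ± 816 CPM in EOD (SD, n = 5). Between EOD and IF16 all 10 genes had higher fitted levels in EOD, with a median of 0.92, from 0.22 for Otx2 to 1.07 for Kl, and an adjusted p of 0.977 for each. In that comparison 0.00% of all genes were called by edgeR, 600 genes (3.62%) had an unadjusted p under 0.05, and DESeq2 called 1 gene. The 3 comparisons share libraries and are not independent of each other. Single libraries moved these values: the median in IF16 vs AL was -1.39 without IF16 replicate 4 and -0.35 without IF16 replicate 5, and in EOD vs AL it was 0.02 without AL replicate 1, with 5 genes above and 5 below 0.

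After refeeding, IF16-R differed from AL-R by a median of -0.89, from -1.53 for Aqp1 to -0.01 for Otx2, with edgeR adjusted p-values of 0.654 to 0.994 and 0.170% of all genes called (9.58% unadjusted). Ttr averaged 415 ± 794 CPM in AL-R, 157 ± 258 CPM in IF16-R and 607 ± 930 CPM in EOD-R (SD, n = 5 each), SDs that exceeded their means. EOD-R differed from AL-R by a median of 0.22, from 0.08 for Kl to 0.78 for Sostdc1, with adjusted p-values of 0.903 to 0.993 and 0.0426% of all genes called (8.50% unadjusted). Between EOD-R and IF16-R the median was 1.2, from 0.10 for Otx2 to 1.96 for Ttr, with adjusted p-values of 0.608 to 0.87 and 0.0182% of all genes called (9.75% unadjusted). Of the 10 genes, 0 had an unadjusted p under 0.05 in any of the 6 comparisons by edgeR, and DESeq2 also called 0. The directions after refeeding rested on single libraries. Without AL-R replicate 1 the median in IF16-R vs AL-R was 0.35, with 9 genes above 0, and that in EOD-R vs AL-R was 1.57. Without EOD-R replicate 3 all 10 genes were below 0 in EOD-R vs AL-R, with a median of -0.43, and the median in EOD-R vs IF16-R was 0.38. Without IF16-R replicate 1 the medians in IF16-R vs AL-R and EOD-R vs IF16-R were -2.03 and 2.23.

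Whether a regimen's difference changed between the collections was tested in the fit of 30 libraries. Of the 10 genes, 0 were called for IF16 (log2 from -1.04 for Aqp1 to 0.05 for Enpp2, edgeR adjusted p from 0.901) and 0 for EOD (from -0.36 for Aqp1 to 0.79 for Sostdc1, adjusted p from 0.829). The shares of all genes called were 0.0474% and 0.0119%, and 7.21% and 10.3% had an unadjusted p under 0.05, among them 0 of the 10. For Ttr the standard error of these contrasts was 2 log2 units, so only a very large change could have been called.

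With log2 CPM of Ttr in the model (of Folr1 for Ttr itself), the standard errors of the plexus genes shrank. Over the genes with an SE in both fits, the median SE fell from 0.613 to 0.188 in IF16 vs AL, from 0.514 to 0.177 in EOD vs AL, from 0.867 to 0.235 in IF16-R vs AL-R and from 0.94 to 0.23 in EOD-R vs AL-R. The median differences became -0.0018, 0.12, -0.10 and 0.06. Still 0 of the 10 were called, with edgeR adjusted p-values from 0.156 upwards in these 4 comparisons. With Ttr in the model, the largest difference among them was that of Aqp1 in IF16-R, -0.82. Ttr and Folr1 are themselves among the 10 genes, so a difference that the 10 genes share is largely taken out with them. Whether fasting changed the plexus genes together therefore cannot be read from this fit.

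**Figure D5:**
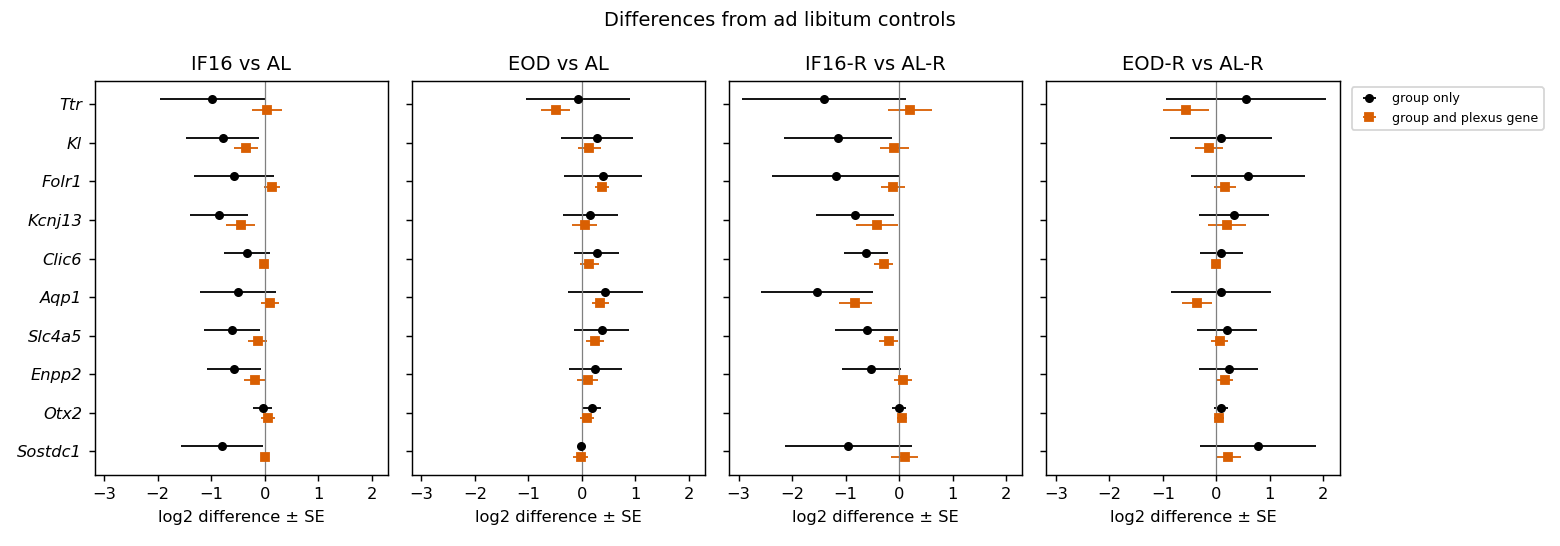
log2 difference ± SE of the 10 genes between each fasting group and its ad libitum control, from the fit of group only (black circles) and of group plus Ttr, or plus Folr1 for Ttr (orange squares); a point whose SE could not be derived because its test statistic was near 0 has no bar. The orange bars are shorter, most but not all orange points lie closer to 0 (Ttr in EOD vs AL moves from -0.08 to -0.49), and no point of either fit has an adjusted p under 0.05.

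Between the collections the plexus genes did differ. All 10 were lower at 8 months than at 6 months in the fit of 30 libraries, with a median log2 difference of -1.42 and edgeR adjusted p-values of 0.00368 to 0.039. This contrast called 41.9% of all 16877 genes tested, 21.9% as lower, so a call alone says little, but the median difference of all genes was -0.0105. Ttr fell by 2.20 on the log2 scale (SE 0.853, adjusted p = 0.039), Folr1 by 2.09 (SE 0.604), Sostdc1 by 1.99 (SE 0.608) and Aqp1 by 1.97 (SE 0.548).

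Smaller falls were seen in Kl, by 1.56 (SE 0.543), Enpp2, by 1.27 (SE 0.341), Slc4a5, by 1.25 (SE 0.35), Kcnj13, by 1.14 (SE 0.384), Clic6, by 1 (SE 0.263), and Otx2, by 0.36 (SE 0.0986). Their order was close to the order of slopes on Ttr. The median of Ttr went from 1930 CPM in AL to 15.9 CPM in AL-R, from 575 CPM in IF16 to 8.49 CPM in IF16-R, and from 1830 CPM in EOD to 13.8 CPM in EOD-R. Each of these pairs of groups overlapped all the same. With each library left out in turn, Ttr passed the test in 14 of 30 fits, Kcnj13 and Kl in 29 of 30 (both lost without IF16 replicate 4), and the other 7 genes in all 30.

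The call of all 10 genes ended with the length gradient as a covariate (edgeR adjusted p from 0.0954 for Otx2 to 0.378 for Ttr), where 2054 genes were called in place of 7064. The differences themselves stayed below 0, with a median of -1.14, Kl at -1.30 and Otx2 at -0.31, and their standard errors were larger, 0.653 for Kl and 0.125 for Otx2. Taken over the genes kept at each age, the gradient lay between 0.692 and 0.968 at 6 months and between 0.884 and 0.942 at 8 months. The covariate was computed over the genes kept in the fit of 30 libraries, so its values were not exactly these. With Ttr as a covariate, itself one of the 10 genes and lower at 8 months, the call also ended, and there the median difference was -0.04. Other plexus genes moved with them: 14 of 22 transport and barrier genes and 19 of 26 secreted, receptor and regulator genes were lower at 8 months, with 3 and 0 higher. Kcne2 fell by 1.98 and Wfdc2 by 1.94 on the log2 scale.

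Genes of other tissues, among them some that border the cerebellum, also differed between the collections. Over all genes 41.9% were called and 21.9% were called lower, so a list near these shares tells little. Of 15 tested ependyma genes, 10 were lower and 1 higher at 8 months, with a median log2 difference of -0.38, and the summed level of the list was 40.4 to 72.6 CPM at 6 months and 37.6 to 53.7 CPM at 8 months. Of 7 tested brainstem genes 6 were lower, with a median of -1.92, among them Dbh, which makes noradrenaline and fell by 2.06, and the serotonin transporter Slc6a4, which fell by 2.90. Of these 7, only 3, Dbh, Tph2 and Slc6a5, passed the filter on low counts in the fit at 8 months. The others, Slc6a4 among them, passed it at 6 months but not at 8 months. For them a lower level at 8 months was largely fixed in advance by the filter, and the median rests partly on them. The summed level of the 9 brainstem genes listed was 27.9 to 61.1 CPM at 6 months and 34.9 to 42.7 CPM at 8 months, most of it from Slc6a5, which rose by 0.20, and 5 of the 9 genes were at 0 in some library at 8 months, against 3 at 6 months. The 12 meningeal and stromal genes had 2 lower, with a median of -0.11, and the 6 granule cell genes had 2 higher and 1 lower, with a median of 0.05. Of 8 oligodendrocyte genes 4 were lower and 0 higher, and of 6 brain endothelium genes 2 were lower and 3 higher. Plvap, of fenestrated endothelium, was lower by 0.27. These lists were not tested with the length gradient as a covariate. The part of dissection borders, of age and of refeeding in these differences cannot be told apart.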

How the data were processed

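The submitters' processing notes name STAR 2.5, HTSeq 0.6.1 and DESeq2 with the mouse build mm10; the annotation release and strand setting are not given in the sources used here, and libraries were prepared by standard Illumina protocols, per the labels. Whole read counts, as deposited, were tested. The authors' FPKM values, scaled by gene length and library size, served only to compare genes. Of the samples, 12 for chromatin immunoprecipitation were not analysed here, and 0 columns lacked a sample. Each library was taken as a separate mouse, although the labels do not say so, and p-values measure the spread between libraries. Within groups, the 60 pairs of libraries gave a chi-square of 4.25 to 135 per degree of freedom over gene counts, so none was a duplicate.

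Tests used edgeR 4.0.16 in R 4.3.3 (filterByExpr by group, TMM, quasi-likelihood test, two-sided, Benjamini-Hochberg over all genes tested, threshold 0.05). One fit per table of 15 libraries gave 6 comparisons and, with log2 CPM of Ttr added, the slopes. A joint fit of 30 libraries gave the contrast of collections and the interactions. Fits kept 16577, 16444 and 16877 genes. Standard errors were derived from log2 differences and F statistics, and are not given where F was near 0. Scripts were tested on simulated data. Logarithms of CPM used a pseudocount of 0.5. Alternatives were DESeq2 1.42.0, RLE factors, no filter, each library left out, the replicate number as a block, and Ttr or the length gradient as a covariate. Promoter windows come from RefSeq (GRCm38.p6).

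The 10 genes and all lists were chosen with earlier results of these data known. Genes named beyond them were the 10 most alike, up to 3 per list with the smallest p in each slope fit, and any listed gene called between groups, which was Aqp4 alone (higher in IF16-R than AL-R by 0.23 on the log2 scale, SE 0.0437, edgeR adjusted p = 0.0374). Slc12a2, Htr2c, Lmx1a, Pcp2, Ndst4 and Kcnh5 were chosen outside that rule after their values were seen.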

Additional observations from a re-analysis of the deposited data

Results flagged for a closer look

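Single libraries stood apart from the other 4 of their group, with a gap to the nearest beyond the 95% value of Dixon's test for 5 samples on the scale of log2(CPM + 0.5), in 8 of the 60 sets of 1 gene in 1 group. Chance alone gives about 5% of such sets, and the 10 genes share their libraries. AL replicate 1 was low in Ttr, at 17.6 CPM with the next library at 1160 CPM, and in Sostdc1, at 0.203 CPM with the next at 7.26 CPM. AL-R replicate 1 stood high by this measure in 5 genes; levels are printed here as CPM, on which other sets could pass. It had 38.1 CPM of Clic6 against 11.5 CPM in the next library, 10.2 against 1.07 CPM of Aqp1, and 16.2 against 4.36 CPM of Slc4a5. It also had 769 against 176 CPM of Enpp2 and 13.8 against 11.9 CPM of Otx2. IF16-R replicate 1 was high in Clic6, at 17.9 CPM against 9.01 CPM.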

How the results depend on the processing

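In the 6 comparisons of groups and the 2 interactions, 0 of the 10 plexus genes were called under every alternative run. The numbers of genes called over the whole table did move. With DESeq2 they were 94 (edgeR 8) in IF16 vs AL, 133 (11) in EOD vs AL, 1 (0) in EOD vs IF16, 105 (28) in IF16-R vs AL-R, 87 (7) in EOD-R vs AL-R, 123 (3) in EOD-R vs IF16-R, 29 (8) and 14 (2) in the interactions of IF16 and EOD, and 194 (106) in the slope on Ttr at 6 months. With the length gradient as a covariate they were 67 in IF16 vs AL, 1 in EOD vs IF16, 0 in IF16-R vs AL-R (681 genes at an unadjusted p under 0.05), 3 in EOD-R vs AL-R, 0 in EOD-R vs IF16-R (725 genes), 35 and 6 in the interactions, and 2054 in 8 months vs 6 months, with 0 plexus genes. With Ttr as a covariate they were 14 in EOD-R vs AL-R and 2861 in 8 months vs 6 months, with 0 plexus genes and with the sign turned for Kcnj13 (0.0924), Kl (0.0452) and, against Folr1, Ttr (0.343). RLE factors gave 7 in EOD vs AL. No filter gave 1 in EOD vs IF16, 11 in EOD-R vs AL-R, 6 in EOD-R vs IF16-R, 4 in the interaction of EOD and 133 (88) in the slope at 8 months. With the replicate block they were 5, 4, 95, 45 and 40 in IF16 vs AL, EOD vs AL, IF16-R vs AL-R, EOD-R vs AL-R and EOD-R vs IF16-R, and 10 in the interaction of EOD. The replicate numbers were not taken as pairs, since not every same-numbered pair of libraries correlated in its deviations above 0.1: at 6 months 3 of 15 did (-0.624 to 0.429), and at 8 months 11 of 15 did (-0.0401 to 0.472, median 0.132 against -0.0505 for other pairs), where the block raised the calls. Leaving out each library in turn gave 3 to 10, 2 to 14, 0 to 1, 0 to 65, 0 to 18 and 0 to 71 genes in the 6 comparisons, 6254 to 7839 between the collections (7 to 10 plexus genes), 5 to 16 and 0 to 6 in the interactions, 70 (without AL replicate 1) to 128 in the slope at 6 months and 51 (without AL-R replicate 1) to 107 at 8 months. The cause of these shifts was not tested. In the slopes, the 8 genes other than Otx2 were called under every alternative run at both ages. Otx2 was called in 2 of 21 alternatives at 6 months and 17 of 21 at 8 months. Of the 10 genes most like the plexus genes, 4 were shared when ranks replaced values (Spearman), 9 with a pseudocount of 0.1 and 10 with 2. Depth limits the lowest values of Aqp1, Folr1, Kcnj13 and Sostdc1, and also those of Tmem72, Kcne2 and Wfdc2.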

Other observations

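The slope fits at 6 and 8 months used different libraries, and 57 genes rose with Ttr in both, 54.8% of the 104 called at 6 months and 64.8% of the 88 called at 8 months. Of these, 32 were on a list, among them 8 of the plexus genes described above, and 25 were on none. The unlisted genes named here were chosen after their values were seen. They included the keratin genes Krt8, with slopes of 0.53 and 0.36 at 6 and 8 months, and Krt18, with 0.57 and 0.51, which encode filament proteins of simple epithelia. Prr32 rose by 0.74 and 0.55 per doubling of Ttr, and Oca2, known for its part in melanosome pigmentation, by 0.68 and 0.46. Slc39a4, a zinc importer, rose by 0.48 and 0.35, and Cdh3, a cadherin of epithelial junctions, by 0.41 and 0.26. Crhr2, a receptor for urocortins, rose by 0.32 and 0.39. All were called by edgeR at an adjusted p of at most 0.0195 in each table.

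At 6 months Ndst4 fell by 0.34 (SE 0.0603, edgeR adjusted p = 0.00806) and Kcnh5 by 0.33 (SE 0.0614, adjusted p = 0.0105) per doubling of Ttr, and at 8 months 0 genes fell.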
